A study of Mus musculus with 8 samples.

Results

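The comparison described here is that of fresh splenic stroma from LTbR-KO mice with fresh splenic stroma from WT mice. Its members are the 10998 probes for which both arrays of WT stroma, or both of LTbR-KO stroma, gave a detection p under 0.05, of 24613 probes on the array. Each group was measured on 2 Illumina MouseRef-8 arrays. WT stroma came from C57BL/6 mice (LTbR+/+), and LTbR-KO stroma from C57BL/6 mice lacking the lymphotoxin β receptor (LTbR-/-). The mice were 8 to 10 weeks old and untreated, and the knockout had been backcrossed repeatedly to C57BL/6, so flanking DNA from the line in which the gene was disrupted may remain. Stroma is what stayed on a mesh when a spleen was rubbed over it. Splenocytes of WT mice (2 arrays), which the wash carried off, served as a second reference, and cultured WT stroma (2 arrays) entered the normalization, the choice of probes tested and the estimate of the spread. The deposited design text calls the 2 arrays of a group technical replicates of an extract, whereas the study's own text calls them biological, so the p-values measure only the spread between arrays, which may be technical.

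The lymphotoxin β receptor is carried by stromal and myeloid cells and binds lymphotoxin α1β2 and LIGHT, which are made chiefly by lymphocytes. It signals through NF-κB, including the alternative route in which NIK (*Map3k14*) leads to processing of p100 (*Nfkb2*) and activity of RelB. In the spleen it is needed for the white pulp, the marginal sinus, follicular dendritic cells and the homeostatic chemokines that place B and T cells. Spleens without it hold lymphocytes but lack this order.

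Depth did not separate the groups: the median bead signal was 56.0 and 60.1 on the WT arrays and 57.1 and 57.0 on the LTbR-KO arrays, and 10587 to 11283 probes were detected on these 4 arrays. Values below are background-corrected, quantile-normalized signals on the log2 scale, given for replicate 1 and replicate 2, and a signal of about 4.5 is that of a probe not detected. Stromal markers fitted the label: the measured reticular fibroblast, endothelial and smooth muscle genes were brighter in WT stroma than in splenocytes by a median of 3.41, 3.81 and 3.61 (log2). The *Ltbr* probe did not mark the knockout. Its signal was 6.41 and 6.77 in WT stroma, 6.78 and 7.14 in LTbR-KO stroma and 5.40 and 5.63 in splenocytes, with a log2 change of 0.37 ± 0.19 (SE, adjusted p = 0.26). Where this probe lies relative to the disrupted part of the gene is not given in the sources used here, so it checks nothing about the genotype.

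The general change in LTbR-KO stroma followed how stromal a gene was. At an adjusted p under 0.05 (limma), 886 probes (8.06%) were lower and 657 (5.97%) higher in LTbR-KO stroma. Of the 9823 probes detected on both arrays of both groups, 753 were lower and 603 higher. The other 133 falls came from the 819 probes that passed through WT stroma alone and the other 54 rises from the 356 that passed through LTbR-KO stroma alone, and the filter left those probes little room for the opposite direction. Without the cultured stroma 780 were lower and 587 higher. The 157 probes whose WT stroma signal exceeded that of splenocytes 16-fold or more fell by a median of 0.66 (log2), whereas the 299 probes over 4-fold brighter in splenocytes than in WT stroma rose by a median of 0.51. In bulk stroma, fewer cells of a type and less RNA per cell cannot be told apart. To find the genes that moved apart from this trend, probes were divided into 10 bins of their WT stroma minus splenocyte difference, and each change was compared with the median of its bin. By this measure 241 probes (2.19%) were lower and 361 (3.28%) higher than their bin. Of the 886 lower probes, 691 (78.0%) were not called apart from the bin, and of the 657 higher probes 404 (61.5%) were not. These counts moved with single arrays: without WT stroma replicate 1 there were 423 lower and 287 higher probes, and 95 and 149 apart from their bins, and without LTbR-KO replicate 2 there were 548 and 411, and 154 and 213 apart.

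**Figure D1:**
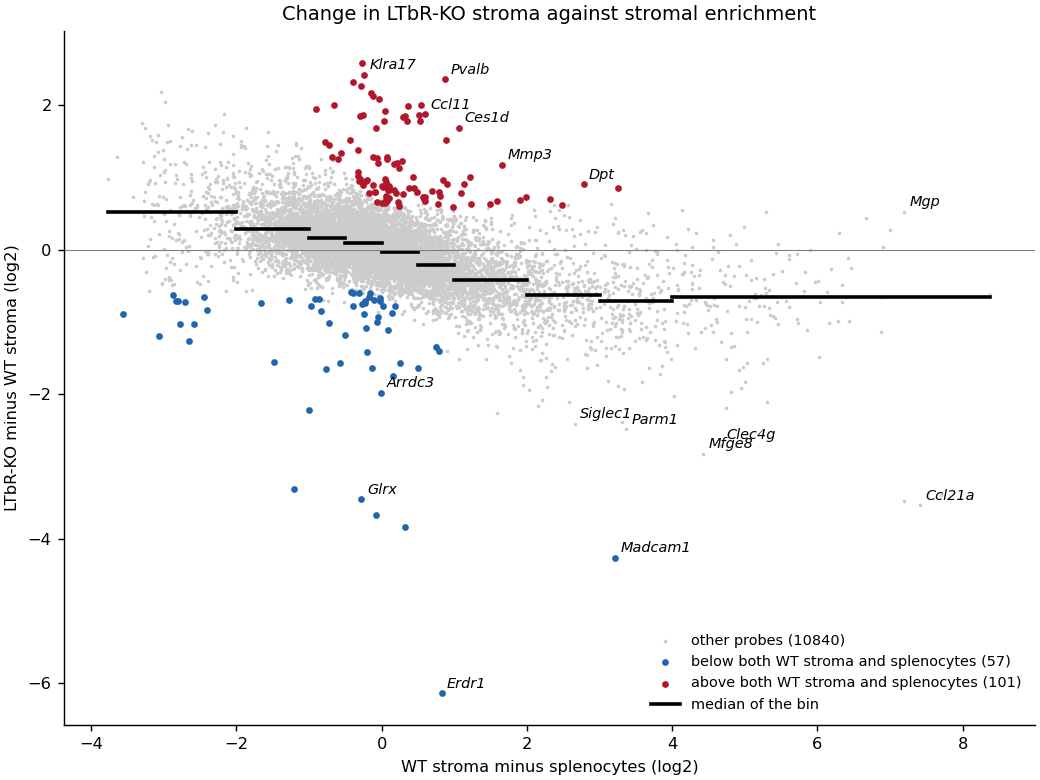
Each point is 1 of the 10998 probes, with WT stroma minus splenocytes (log2) on the horizontal axis and LTbR-KO minus WT stroma (log2) on the vertical axis. Black bars are bin medians, which go from 0.51 at the splenocyte end to -0.66 at the stromal end; blue and red points (57 and 101) are probes below or above both WT fractions, and *Erdr1*, *Madcam1*, *Glrx* and *Ccl21a* lie far below the bars.

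The second measure asked for a level in LTbR-KO stroma outside the range of both WT fractions, which mixing the WT fractions in other proportions would not reach. It took probes with an adjusted p under 0.05 and over 1.5-fold against WT stroma and against splenocytes in the same direction. Below both were 57 probes (0.518%), which named 32 genes (0.385% of 8306 named genes), and above both were 101 probes (0.918%), which named 87 genes. Without LTbR-KO replicate 1 there were 111 below both, and without WT stroma replicate 1 there were 67 above both. The LTbR-KO arrays enter both comparisons, and the WT arrays enter both the change and the enrichment, so these pairs of values are not independent.

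Promoter windows are shown for 4 genes on which the results below turn: *Madcam1*, *Ccl21a* and *Cxcl13*, which mark the marginal sinus and the T and B cell zones, and *Glrx*, the largest fall among chromosome 13 genes. The windows are those of RefSeq (GRCm38.p6), from before the gene start into the transcript, 5′ to 3′. Capitals mark each match, on either strand, to a κB motif of GGG, then any 3 bases, then TTCC.
Madcam1 (chr10:79664309-79664608, plus strand): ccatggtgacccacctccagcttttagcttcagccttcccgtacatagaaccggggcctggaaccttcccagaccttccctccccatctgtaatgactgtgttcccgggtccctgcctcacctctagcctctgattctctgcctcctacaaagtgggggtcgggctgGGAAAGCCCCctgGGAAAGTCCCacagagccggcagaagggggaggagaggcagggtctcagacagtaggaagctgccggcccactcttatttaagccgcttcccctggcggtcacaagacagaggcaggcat
Ccl21a (chr4:42773942-42774241, minus strand): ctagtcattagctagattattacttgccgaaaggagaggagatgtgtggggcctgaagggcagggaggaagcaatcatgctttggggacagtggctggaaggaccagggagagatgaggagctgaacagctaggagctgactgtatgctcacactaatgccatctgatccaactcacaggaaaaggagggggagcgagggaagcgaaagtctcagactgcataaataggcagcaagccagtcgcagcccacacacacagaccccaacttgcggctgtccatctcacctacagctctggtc
Cxcl13 (chr5:95956689-95956988, plus strand): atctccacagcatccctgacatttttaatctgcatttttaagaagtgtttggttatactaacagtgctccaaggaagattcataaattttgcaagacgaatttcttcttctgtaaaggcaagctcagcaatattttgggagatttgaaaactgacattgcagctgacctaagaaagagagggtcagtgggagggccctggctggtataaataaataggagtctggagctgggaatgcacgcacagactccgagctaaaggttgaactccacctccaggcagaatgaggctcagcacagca
Glrx (chr13:75839635-75839934, plus strand): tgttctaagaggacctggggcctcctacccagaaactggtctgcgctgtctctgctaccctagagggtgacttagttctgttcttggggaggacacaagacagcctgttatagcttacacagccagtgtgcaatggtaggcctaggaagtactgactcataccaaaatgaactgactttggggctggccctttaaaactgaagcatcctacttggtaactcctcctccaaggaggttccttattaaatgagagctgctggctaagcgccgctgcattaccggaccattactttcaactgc
*Madcam1* held 2 matches, which are GGAAAGCCCC and GGAAAGTCCC as read on the strand shown and do not overlap. The other 3 windows held none, which says only that these letters are absent there. The motif was found in 5.56% of all 32851 windows and in windows of 6.31% of genes. Of the genes below both fractions that have a window, 1 of 29 held it, and of those above both 5 of 66.

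Among the genes that fell below both WT fractions, *Erdr1*, *Madcam1*, *Glrx* and *Arrdc3* fell the most. *Erdr1*, which RefSeq places on chromosome X, encodes a secreted factor, erythroid differentiation regulator 1. Its brighter probe gave 10.78 and 10.50 in WT stroma, 9.99 and 9.64 in splenocytes and 4.46 and 4.55 in LTbR-KO stroma, where neither array detected it. That is at least 54.6-fold lower than WT stroma (adjusted p = 5.1e-08) and at least 30.8-fold lower than splenocytes. Here and below, "at least" sets the group with signal against the dimmest signal of a detected probe on each array of the other group. A second *Erdr1* probe gave 6.65 and 6.48 in WT stroma and 4.37 and 4.32 in LTbR-KO stroma, again undetected. No LTbR-KO array came near a WT array for either probe.

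*Madcam1*, the addressin on the cells that line the marginal sinus, was 8.77 and 8.73 in WT stroma, 5.43 and 5.64 in splenocytes and 4.53 and 4.44 in LTbR-KO stroma. It was undetected in the latter, at least 14.7-fold lower than in WT stroma (adjusted p = 1.4e-07). Its change lay 3.55 (log2) under the median of its bin (adjusted p = 5.3e-07). Endothelial genes in general fell less: 23 of the 30 measured fell, with a median change of -0.78, beside 8.61% of all genes lower and a median of 0.01, and 16 kept the call whichever array was left out. Among the 28 detected in both groups 22 fell. Of the 30, 8 fell further than their bins, beside 1.85% of named genes, and 1 stood higher, beside 3.56%. *Clec4g*, a lectin of sinusoidal endothelium, *Gja4*, *Notch4*, *Sox18*, *Mmrn2*, *Hey1* and *Emcn* were the 7 besides *Madcam1*. *Stab1*, a scavenger receptor of sinusoids, stood higher than its bin at a log2 change of 0.19 (adjusted p = 0.60 against WT).

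*Ackr2*, an atypical receptor that binds and degrades inflammatory CC chemokines, was 7.74 and 7.69 in WT stroma, 7.44 and 7.47 in splenocytes and 6.02 and 6.27 in LTbR-KO stroma, a log2 change of -1.57 ± 0.18 (SE, adjusted p = 4.7e-04). It stayed detected in all 3. *Eps8l1*, of a family of actin regulators, was 6.14 and 5.81 in WT stroma, 6.06 and 6.30 in splenocytes and undetected at 4.58 and 4.53 in LTbR-KO stroma, at least 2.15-fold lower than WT (adjusted p = 3.9e-04). The myeloid lectin gene *Cd33* and the eosinophil granule gene *Prg3* were also undetected in LTbR-KO stroma, at least 2.17-fold and 2.08-fold lower than WT. Against splenocytes their bounds were only 1.26-fold and 1.23-fold. *Rsph1*, a component of the ciliary radial spoke, went from 5.61 and 5.89 to 4.66 and 4.67 and was 6.08 and 5.86 in splenocytes. Of the 57 probes, 12 were detected on neither LTbR-KO array.

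**Figure D2:**
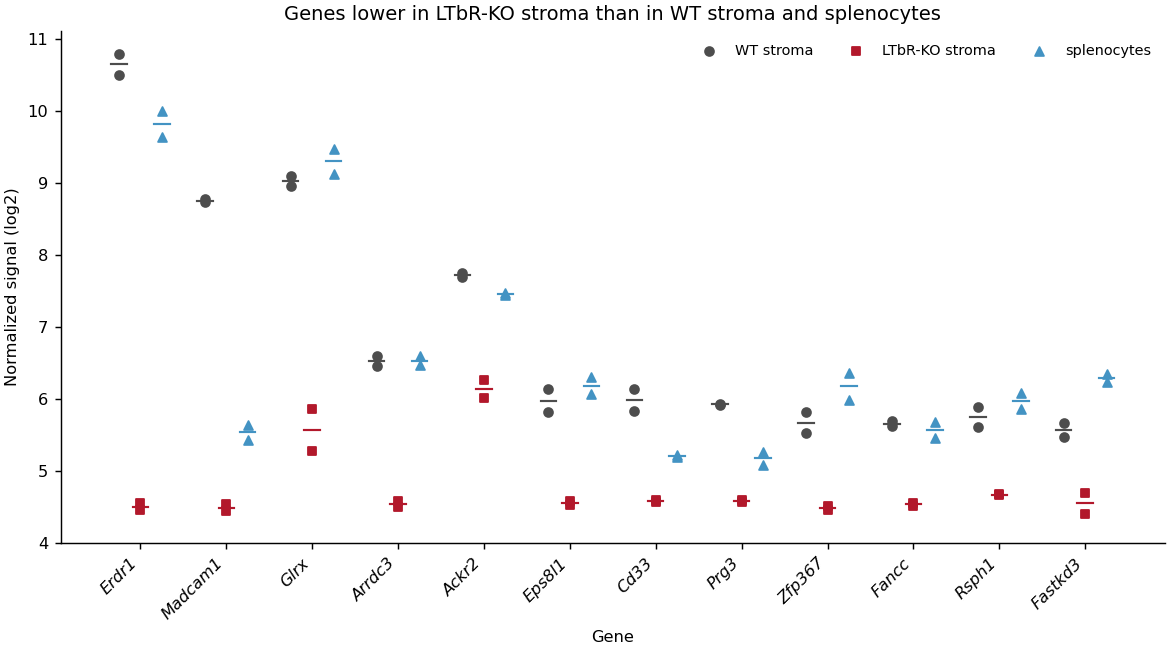
Normalized signal (log2, vertical axis from 4) on each array for 12 of the 32 named genes below both WT fractions, by group; the short bars are group means of 2 arrays. LTbR-KO values lie under every WT stroma and splenocyte value for all 12 genes, but the genes were chosen for being below both, so this is no further result. In LTbR-KO stroma 10 of the 12 genes sit near the level of undetected probes.

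*Mzb1* and *Derl3* were the members of the plasma cell list below both fractions. *Mzb1*, an endoplasmic reticulum chaperone of marginal zone B cells and plasma cells, was 10.39 and 10.81 in WT stroma, 11.86 and 11.88 in splenocytes and 9.96 and 9.85 in LTbR-KO stroma. *Derl3*, which serves degradation of misfolded proteins, went from 5.83 and 5.83 to 5.19 and 5.05, and *Fkbp11*, a prolyl isomerase of the secretory pathway, from 7.21 and 7.15 to 6.42 and 6.38. *Fkbp11* is not in that list and was named after its value was seen, and neither is *Bhlha15*, a transcription factor of secretory cells that is in the acinar list. *Bhlha15* fell from 5.80 and 5.76 to 4.74 and 5.05. Their log2 changes were -0.69, -0.72, -0.78 and -0.88 (adjusted p = 0.019, 0.0067, 0.0083 and 0.0038). Of the 7 plasma cell genes measured, 3 fell (*Mzb1*, *Derl3* and *Xbp1*), 4 were not called and none rose, beside 8.61% of all genes lower, and only *Derl3* kept its call whichever array was left out. B cell genes went the other way: 11 of 15 rose (8 kept the call whichever array was left out), beside 5.86% of all genes higher, with a median change of 0.91 and no falls. Of these 15 B cell genes, 7 also stood higher than their bins, beside 3.56% of named genes, and none lower. *Mzb1* lost its call without WT stroma replicate 2 (adjusted p = 0.13) or LTbR-KO replicate 2 (adjusted p = 0.087), *Fkbp11* without WT stroma replicate 1 (adjusted p = 0.054), and *Xbp1* without any 1 of the 6 fresh arrays (adjusted p from 0.057 to 0.16).

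Of the 57 probes below both fractions, 23 (40.4%) carried no gene symbol in the array annotation, beside 12.8% of all members. They include some of the largest falls. ILMN_2733454 was 12.09 and 12.25 in WT stroma, 11.81 and 11.89 in splenocytes and 8.34 and 8.32 in LTbR-KO stroma, a log2 change of -3.84 ± 0.14 (SE, adjusted p = 1.7e-07). ILMN_2703329 was 11.56 and 11.86 in WT stroma, 11.76 and 11.82 in splenocytes and 7.92 and 8.15 in LTbR-KO stroma. In splenocytes 14 of the 23 were at least 2-fold brighter than in WT stroma, beside 1507 of all 10998 members. On neither cultured array were 19 of the 23 detected, whereas these arrays detected 8825 and 9431 of all members.

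The genes below both fractions include *Fancc*, *Zfp367*, *Fastkd3*, *Slc12a7*, *Glrx* and *Arrdc3*, all 6 from 1 stretch of chromosome 13. The stretch was noticed after the values were seen, and its ends are the outermost of the 6, so this is a description with no test. It holds 34 measured genes in RefSeq order, of which 6 (17.6%) were below both, beside 0.314% of all other named genes. No run of 34 neighbouring measured genes on another chromosome held more than 2. The remaining 229 measured genes of chromosome 13 held 1, *Gadd45g*. Of the 6, *Fancc*, *Zfp367*, *Fastkd3* and *Arrdc3* were detected on neither LTbR-KO array. They passed the detection filter through WT stroma alone, which left them little room to rise. Of all 57 probes below both, 12 were detected on neither LTbR-KO array. The counts by stretch were not repeated among genes detected in both groups.

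*Glrx*, glutaredoxin, which reduces glutathionylated proteins, was 8.95 and 9.09 in WT stroma, 9.47 and 9.13 in splenocytes and 5.28 and 5.85 in LTbR-KO stroma, where both arrays still detected it. This was a log2 change of -3.46 ± 0.20 (SE, adjusted p = 7.4e-06), and against splenocytes -3.73 (adjusted p = 1.6e-07). *Arrdc3*, an arrestin-family adaptor, lay 3 measured genes further along. It was 6.46 and 6.59 in WT stroma, 6.59 and 6.47 in splenocytes and undetected at 4.50 and 4.58 in LTbR-KO stroma, at least 3.15-fold lower than WT (adjusted p = 2.7e-05). The measured genes between them did not follow: *Rhobtb3* changed by -0.39 (adjusted p = 0.27) and *Nr2f1* by -0.42 (adjusted p = 0.14), each close to its bin median.

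At the other end of the stretch, *Fancc*, a gene of the Fanconi anaemia core complex, went from 5.70 and 5.62 to 4.56 and 4.52, and *Zfp367*, a zinc finger transcription factor, from 5.81 and 5.52 to 4.51 and 4.46. *Fastkd3*, which acts on mitochondrial RNA, went from 5.48 and 5.66 to 4.41 and 4.69. All 3 were undetected in LTbR-KO stroma and at least 1.72-fold, 1.74-fold and 1.62-fold lower than WT (adjusted p = 8.2e-04, 0.0015 and 0.0021). *Slc12a7*, a potassium-chloride cotransporter, fell from 6.91 and 6.51 to 6.0 and 6.01, with a call lost without WT stroma replicate 1 (adjusted p = 0.13) or LTbR-KO replicate 2 (adjusted p = 0.059). *Nsun2*, an RNA cytosine methyltransferase in the same stretch, was above both instead, from 4.81 and 4.98 to 6.21 and 5.44, a call lost without WT stroma replicate 1 (adjusted p = 0.11) or LTbR-KO replicate 1 (adjusted p = 0.082). The other 27 genes were neither below nor above both. Among them *Cdk20* changed by -1.15 by the more deviating of its 2 probes. It lay -0.73 from its bin median (adjusted p = 0.024) and was called lower than its bin.

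**Figure D3:**
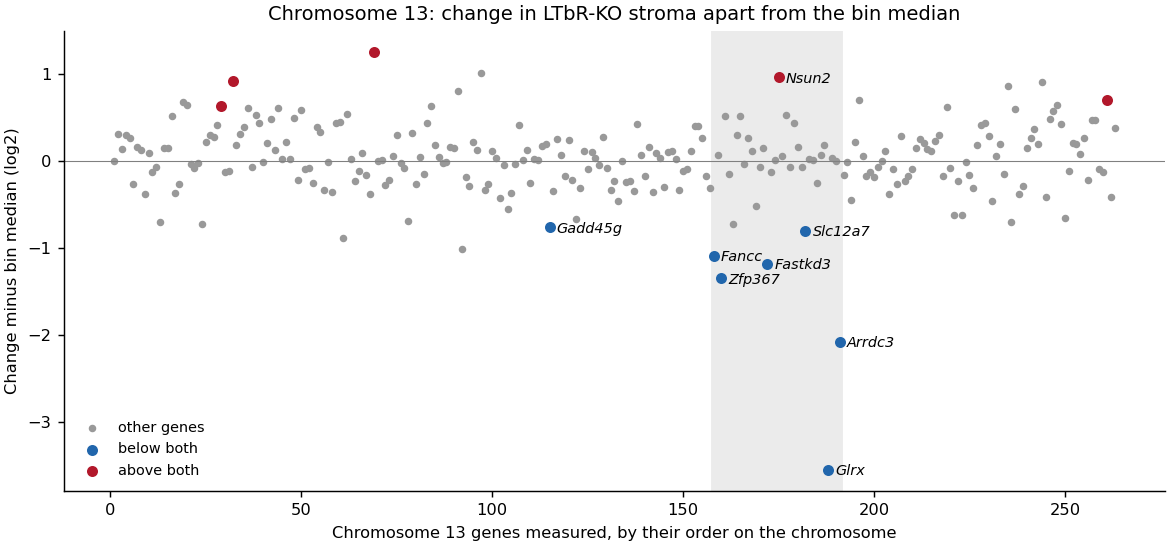
Change minus bin median (log2) for the 263 measured genes of chromosome 13 in their order along it, each by its most deviating probe. The grey band marks the stretch of 34 genes; 6 of the 7 blue points (below both) lie in it, from -0.80 for *Slc12a7* to -3.55 for *Glrx*, while the other genes of the band lie between -0.73 (*Cdk20*) and 0.96 (*Nsun2*).

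*Ltbr* itself lies on chromosome 6, and some genes up to 38 measured genes away from it changed. Over all member probes 14% were called in either direction, and the neighbourhood of *Ltbr* was not compared with that share. *Klra17*, 27 measured genes away, had the largest rise of all named genes, and *Cd69*, 18 genes away, rose from 7.0 and 7.07 to 8.54 and 8.53 (adjusted p = 1.6e-04). *Cd27*, the next measured gene, rose by 1.02 (adjusted p = 0.0035), while *Hebp1*, 38 genes away, fell by 0.85 (adjusted p = 0.045). *Cd69* and *Cd27* are lymphocyte genes. In the T and NK cell list rises were called for 13 of the 18 genes, beside 5.86% of all genes. In that list 9 stood higher than their bins, beside 3.56% of named genes. The 4 genes *Klra17*, *Cd69*, *Cd27* and *Hebp1* were picked here after their values were seen. Whether flanking DNA takes part was not tested. *Hebp1* lost its call without any 1 of 5 arrays, reaching adjusted p = 0.26 without WT stroma replicate 1.

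A further set fell well beyond its stromal bin without dropping below splenocytes. *Ccl21a*, a T zone chemokine, was 12.84 and 12.83 in WT stroma and 9.25 and 9.34 in LTbR-KO stroma, against 5.44 and 5.41 in splenocytes. The change was -3.54 ± 0.13 (SE) and lay -2.88 from its bin median (adjusted p = 1.1e-06). A *Ccl21b* probe went from 12.87 and 12.63 to 9.15 and 9.38, but these genes are near-identical copies and their signals cannot be told apart. *Cxcl13*, the B cell chemokine of the follicle, fell from 10.76 and 10.61 to 8.70 and 8.85, which is -1.25 from its bin (adjusted p = 8.2e-04). *Clec4g* went from 10.79 and 10.74 to 8.0 and 8.14. *Parm1*, a mucin-like membrane protein, went from 8.18 and 7.59 to 5.54 and 5.25 by the probe with the larger change, and its brighter probe fell by 2.20.

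Genes of follicular dendritic cells and of marginal zone macrophages were uneven. *Mfge8*, which bridges apoptotic cells to phagocytes and is a follicular dendritic cell product, fell from 13.24 and 13.18 to 10.48 and 10.29, -2.16 from its bin (adjusted p = 2.7e-05). *Clu*, clusterin, an extracellular chaperone, went from 12.49 and 12.11 to 10.49 and 10.45 with 7.45 and 7.15 in splenocytes, a change of -1.83 ± 0.18 (SE, adjusted p = 1.8e-04) that lay -1.17 from its bin (adjusted p = 0.0044). *Prnp* and *Tnfrsf1a* fell too, by 0.68 and 0.55, but stood -0.05 and -0.12 from their bins. *Prnp* lost its call without LTbR-KO replicate 1 (adjusted p = 0.065), WT stroma replicate 1 (adjusted p = 0.055) or WT stroma replicate 2 (adjusted p = 0.072). In this list 6 of 9 measured genes fell and 2 rose, beside 8.61% and 5.86% of all genes, and 3 falls and 1 rise kept the call whichever array was left out. The 2 that rose, *Fcer2a* and *Fcgr2b*, are Fc receptor genes that B cells also express.

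In the marginal zone macrophage list 6 of 10 genes fell and none rose (median change -0.75), again beside 8.61% of all genes lower, and 5 falls kept the call whichever array was left out. Of the 9 genes detected in both groups 5 fell. *Siglec1*, the sialoadhesin of metallophilic macrophages, went from 7.38 and 7.78 to 5.25 and 5.10, and *Timd4*, a phosphatidylserine receptor, from 7.28 and 7.14 to 5.05 and 5.49. *Cd209b*, the lectin of marginal zone macrophages, was undetected in LTbR-KO stroma, at least 2.29-fold lower than WT (adjusted p = 0.0010). *Cxcl16* of the same list stood 1.18 above its bin (adjusted p = 0.0027) at a change against WT of 0.55 (adjusted p = 0.057). Red pulp macrophage genes gave 1 fall and 2 rises among 14, beside 8.61% of all genes lower and 5.86% higher. Their median change was 0.06, and all 3 calls were lost when single arrays were left out. Of 20 interferon response genes, 4 fell and 1 rose (median -0.06), beside the same shares of all genes. Among the 18 detected in both groups 3 fell and 1 rose. The falls of *Oas2* and *Mx2* kept the call whichever array was left out, and the other 2 did not. *Oas2*, an antiviral oligoadenylate synthetase with close paralogs, went from 6.87 and 6.86 to 5.71 and 5.38 (adjusted p = 6.9e-04), and *Mx2* from 5.99 and 5.88 to 5.06 and 5.19 (adjusted p = 0.0042).

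The 24 measured pancreatic acinar genes include 6 that passed the detection filter through 1 group alone. Of the 18 detected on both arrays of both groups, all 18 rose and were above both fractions, with a median change of 1.85, beside 1.05% of all genes above both. Over all 24, 22 rose, 21 of them above both fractions, and 21 rises kept the call whichever array was left out. *Clps*, colipase, went from 5.77 and 5.87 to 8.02 and 8.26 by its more changed probe, and *Amy2a5*, pancreatic amylase, from 10.97 and 10.78 to 12.89 and 12.85. *Sycn*, *Try4*, *Cela3b*, *Ctrb1* and *Rnase1*, all secreted by or granule-bound in acinar cells, rose by 2.27, 2.17, 2.12, 1.86 and 2.08. The summed signal of the list, in units of 1000, was 5.19 to 5.91 in WT stroma, 19.4 to 20.5 in LTbR-KO stroma and 4.26 to 4.61 in splenocytes. No measured acinar gene was undetected in LTbR-KO stroma, and 5 were undetected on both WT arrays. The exception in direction was *Bhlha15*, described above, and the elastase, trypsin, amylase and kallikrein genes have close paralogs that a probe may share. The part of pancreas in the other rises was not tested. Without the acinar list, 66 named genes remained above both.

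*Klra17*, a Ly49-family receptor of plasmacytoid dendritic and myeloid cells, was 5.30 and 5.29 in WT stroma, 5.55 and 5.52 in splenocytes and 7.82 and 7.61 in LTbR-KO stroma, a log2 change of 2.42 ± 0.14 (SE, adjusted p = 5.9e-06). Ly49 genes form a multigene family, so the probe may read more than 1 of them. *Pvalb*, the calcium buffer parvalbumin, was 5.32 and 5.32 in WT stroma and 7.41 and 7.96 in LTbR-KO stroma, a log2 change of 2.36 ± 0.18 (SE, adjusted p = 4.5e-05), and was undetected in splenocytes. Of the 9 skeletal muscle genes measured, *Pvalb* alone rose and 2 fell, among them *Ttn*, titin, from 7.09 and 7.0 to 4.97 and 4.97. Over all genes 5.86% rose and 8.61% fell. Groups did not overlap for *Klra17* or *Pvalb*, which were chosen for being above both. *Ces1d*, a carboxylesterase of fat and liver, went from 5.51 and 5.67 to 7.19 and 7.36 and was undetected in splenocytes, at least 5.32-fold lower than LTbR-KO stroma. In the adipocyte list 3 of 11 genes rose (*Ces1d*, *Scd1* and *Car3*, the last with a call lost without any 1 of the 6 fresh arrays, at adjusted p from 0.060 to 0.19) and 1 fell, with a summed signal in the same units of 1.93 to 2.04 in WT and 2.10 to 2.32 in LTbR-KO stroma. Of the 8 adipocyte genes detected in both groups 2 rose and 1 fell, beside 5.86% and 8.61% of all genes.

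Single chemokine and acute phase genes were also above both fractions. *Ccl11*, eotaxin, was 4.69 and 5.26 in WT stroma, 6.75 and 6.93 in LTbR-KO stroma and undetected in splenocytes, a log2 change of 1.87 ± 0.19 (SE, adjusted p = 2.2e-04). *Ccl8*, a chemokine of the same cluster on chromosome 11, went from 5.06 and 5.39 to 6.62 and 6.85 (adjusted p = 3.1e-04). Over all 24 chemokine genes measured, 5 fell and 5 rose (median 0.08), beside 8.61% of all genes lower and 5.86% higher. *Ccl21a*, *Ccl21b* and *Cxcl13* were the largest falls and *Ccl11* and *Ccl8* the largest rises. Of the 19 detected on both arrays of both groups, 4 fell and 3 rose, 2 of the 3 above both fractions. The other calls came from genes that passed the detection filter through 1 group alone. Of the 24 measured, 3 were above both fractions, so not all of these were detected on both arrays of both groups. On WT stroma replicate 1, *Ccl11* at 4.69 lay near the level of an undetected probe, which left it little room to fall. *Saa3*, an acute phase serum amyloid, rose from 4.93 and 5.02 to 6.74 and 7.20 with 5.80 and 5.47 in splenocytes (adjusted p = 1.1e-04), and *Hp*, haptoglobin, from 6.86 and 6.87 to 8.97 and 8.66 with 7.84 and 7.69 (adjusted p = 4.4e-05). *Hsd11b1*, which regenerates active glucocorticoid, was above both by 2 probes, with changes of 1.18 and 1.25.

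Granulocyte genes rose in 11 of 17 cases and fell in 2 (*Ltc4s* and *Prg3*), beside 5.86% of all genes higher and 8.61% lower. Of the 15 detected on both arrays of both groups, 11 rose, 7 of them above both fractions beside 1.05% of all genes, and 1 fell (median 1.12). Of the 11 rises, 9 kept the call whichever array was left out. Their summed signal, in units of 1000, was 3.97 to 4.74 in WT stroma, 9.35 to 10.8 in LTbR-KO stroma and 11.4 to 12.4 in splenocytes. The serine proteases of primary granules, *Elane*, *Prtn3* and *Ctsg*, and myeloperoxidase, *Mpo*, were above both, *Mpo* with the call of its brightest probe lost without WT stroma replicate 1 (adjusted p = 0.067). *Prtn3* was 6.87 and 6.73 in WT stroma, 6.55 and 6.51 in splenocytes and 8.0 and 8.04 in LTbR-KO stroma, a log2 change of 1.22 ± 0.15 (SE, adjusted p = 6.7e-04). *Elane* was 6.18 and 6.54 in WT stroma, 6.51 and 6.45 in splenocytes and 7.75 and 7.52 in LTbR-KO stroma. The cathelicidin gene *Camp*, of secondary granules, was also above both, at 11.16 and 11.15 against 9.61 and 9.73 in WT stroma and 10.42 and 10.47 in splenocytes. *S100a8* and *Lcn2* rose by 2.05 and 1.64 but stayed under splenocytes. Eosinophil granule genes went opposite ways: *Prg3* fell, as given above, whereas *Prg2* rose from 9.15 and 9.49 to 10.07 and 10.0, a call lost without WT stroma replicate 1 (adjusted p = 0.16) or either LTbR-KO array (adjusted p = 0.070 and 0.065).

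**Figure D4:**
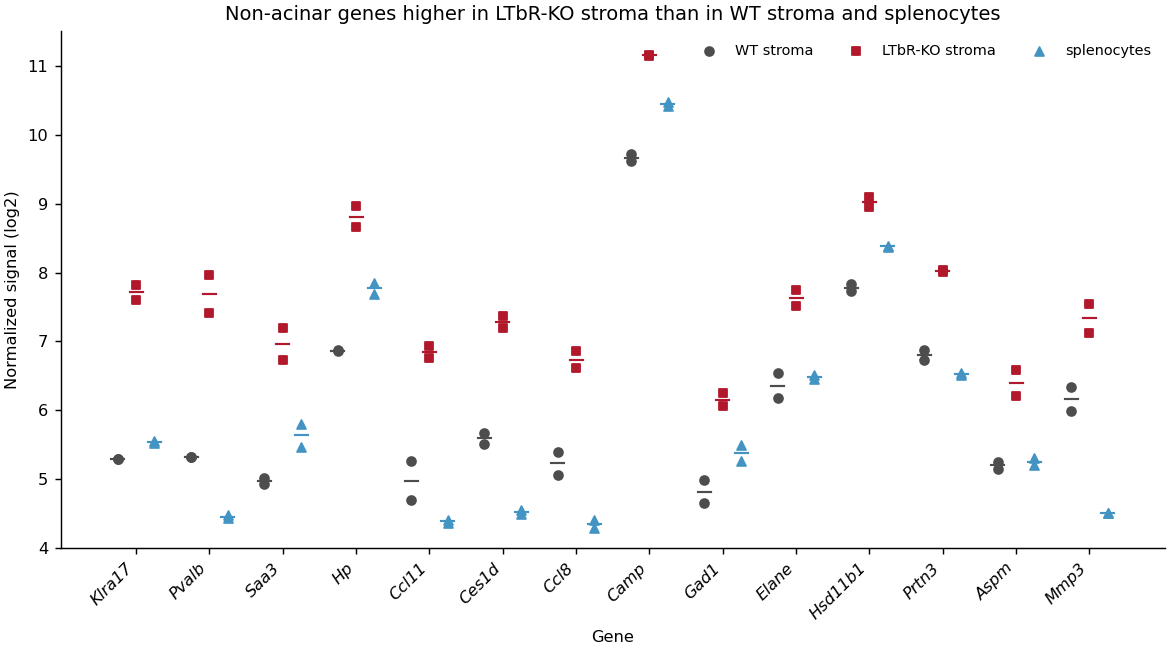
Normalized signal (log2, vertical axis from 4) on each array for 14 non-acinar genes above both WT fractions, by group; the short bars are group means of 2 arrays. Every LTbR-KO value lies above every WT stroma and splenocyte value of the same gene, but the genes were chosen for being above both, so this is no further result. The distance from WT stroma is widest for *Klra17* and *Pvalb*.

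Only 18 of the 1641 probes at least 2-fold richer in WT stroma rose in LTbR-KO stroma (1.1%), while 666 (40.6%) fell. They named 14 genes, of which 3 (*Mmp3*, *Kel* and *Ces1d*) kept the call whichever array was left out and 11 did not. *Mmp3*, the matrix protease stromelysin, was 5.99 and 6.34 in WT stroma, 7.13 and 7.55 in LTbR-KO stroma and undetected in splenocytes, a log2 change of 1.17 ± 0.18 (SE, adjusted p = 0.0021). A second *Mmp3* probe was 5.44 and 5.28 in WT stroma and 6.26 and 5.70 in LTbR-KO stroma and lay just outside the threshold of the test. *Dpt*, dermatopontin, went from 8.48 and 8.73 to 9.31 and 9.70 and *Col3a1*, the α chain of type III collagen, from 6.67 and 6.69 to 7.45 and 7.29. *Sult1a1*, a sulfotransferase, rose by 0.73, and *Kel*, the Kell blood group antigen, by 0.90. Among the 19 reticular fibroblast genes, 7 fell and 2 rose against WT, beside 8.61% and 5.86% of all genes. Their median change was -0.25, with 3 falls and neither rise keeping the call whichever array was left out. Yet 7 of the 19 stood above their bins and 1 below, beside 3.56% and 1.85% of named genes. *Col1a1*, *Dcn*, *Pdgfra* and *Fn1* were at changes of 0.20, 0.22, 0.13 and 0.47, none passing the test against WT, and stood 0.86, 0.88, 0.79 and 1.1 above their bins.

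The other stroma-rich genes that rose were *Mpo*, *Ppbp*, *Clcn2*, *Cyp2s1*, *Agtr1a*, *Rad54l*, *P4ha1* and *Mgp*, by 0.52 to 1.0. Each of these 8 lost its call without at least 1 array, and *Cyp2s1*, *P4ha1* and *Mgp* without any 1 of the 6 fresh arrays. Without WT stroma replicate 1, 7 stroma-rich probes rose in all, and without WT stroma replicate 2 or LTbR-KO replicate 2 there were 9. *Dpt* lost its call without WT stroma replicate 1 (adjusted p = 0.13) or LTbR-KO replicate 2 (adjusted p = 0.14), as did *Sult1a1* (adjusted p = 0.078 and 0.069). *Col3a1* lost it without WT stroma replicate 1 (adjusted p = 0.063).

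The reverse exception was 20 of the 1507 probes at least 2-fold richer in splenocytes that fell (1.33%), against 331 (22.0%) that rose. Of these, 16 carried no symbol. Without WT stroma replicate 1 or LTbR-KO replicate 2 there were 9, and without 1 or the other splenocyte array 13. The 4 named genes were *Erdr1*, by its second probe, *Mzb1*, *Klre1* and *Fgf13*. *Klre1*, a receptor of NK cells, was 5.74 and 5.79 in WT stroma, 5.04 and 5.37 in LTbR-KO stroma and 7.61 and 7.50 in splenocytes, a change of -0.56 (adjusted p = 0.035), while T and NK cell genes as a list rose by a median of 1.06. *Fgf13*, an intracellular fibroblast growth factor homologue, changed by -0.55 (adjusted p = 0.032). Both lost their calls without any 1 of 5 fresh arrays, with adjusted p from 0.062 to 0.15 for *Klre1* and from 0.056 to 0.17 for *Fgf13*.

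Within the LTbR pathway itself, rises were called for 3 ligand genes, of which only *Ltb* was detected in both groups. No call was made for the transducers of the alternative route. Of 14 genes measured, 5 rose and 1 fell, beside 5.86% and 8.61% of all genes, with a median change of 0.32, and of the 12 detected in both groups 3 rose and 1 fell. The ligand gene *Ltb* was 6.98 and 7.93 in WT stroma, 9.03 and 8.64 in LTbR-KO stroma and 10.30 and 10.64 in splenocytes, a log2 change of 1.38 ± 0.27 (SE, adjusted p = 0.0094). *Lta* went from 4.58 and 4.91 to 5.84 and 5.63 and *Tnfsf14*, which encodes LIGHT, from 4.69 and 5.22 to 6.31 and 5.89 (adjusted p = 0.0043 and 0.0046). *Lta* and *Tnfsf14* passed the detection filter through LTbR-KO stroma alone, which left them little room to fall. All 3 had their highest mean in splenocytes. The NF-κB inhibitor *Nfkbia* rose by 0.84 (adjusted p = 0.0085), a call lost without WT stroma replicate 1 (adjusted p = 0.071). *Map3k14*, *Nfkb2* and *Relb* of the alternative route changed by -0.22, -0.13 and -0.18, with 95% intervals of -0.63 to 0.18, -0.59 to 0.33 and -0.50 to 0.14. The remaining calls, *Tnf* (up) and *Tnfrsf1a* (down), were lost when single arrays were left out, *Tnf* without any 1 of 5 and *Tnfrsf1a* without any 1 of the 4 stroma arrays, reaching adjusted p = 0.21 and 0.11 without WT stroma replicate 1.

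Other lists moved mostly with their bins. Beside the counts that follow, 8.61% of all genes were lower and 5.86% higher. Of 16 smooth muscle and pericyte genes 11 fell (median -0.73, 6 of them whichever array was left out), but only *Lmod1*, leiomodin, fell beyond its bin. Of the 15 detected in both groups 10 fell. Of 8 nerve and glial genes 6 fell (median -0.95, 4 of them whichever array was left out), with *Stmn2*, a neuronal microtubule regulator, undetected in LTbR-KO stroma. Of the 6 nerve and glial genes detected in both groups, 4 fell (median -0.82). The other falls passed the detection filter through WT stroma alone, which left them little room to rise. Among 23 ribosomal protein genes 5 rose and none stood apart from its bin, and the same was true of the 4 of 18 proliferation genes that rose. All 5 ribosomal and all 4 proliferation calls were lost when single arrays were left out. Erythroid genes rose in 7 of 19 cases, 2 of them whichever array was left out, and *Kel* and *Rhd*, both blood group antigens, were above both fractions. *Rhd* lost its call without WT stroma replicate 1 (adjusted p = 0.11) or LTbR-KO replicate 2 (adjusted p = 0.092). Platelet and megakaryocyte genes fell in 3 of 10 cases and rose in 1 (*Ppbp*), all 4 calls being lost when single arrays were left out. Dendritic cell genes fell in 2 of 10 and rose in 1 (*Ccr7*). Mesothelial genes fell in 2 of 5, and in 1 of the 4 detected in both groups. Of 13 immediate early and stress genes 2 fell and 2 rose: *Hspb1* from 11.68 and 11.63 to 10.09 and 10.08 was the larger fall, while the chaperone genes *Hsph1* and *Dnajb1* rose by 1.25 and 1.1.

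**Figure D5:**
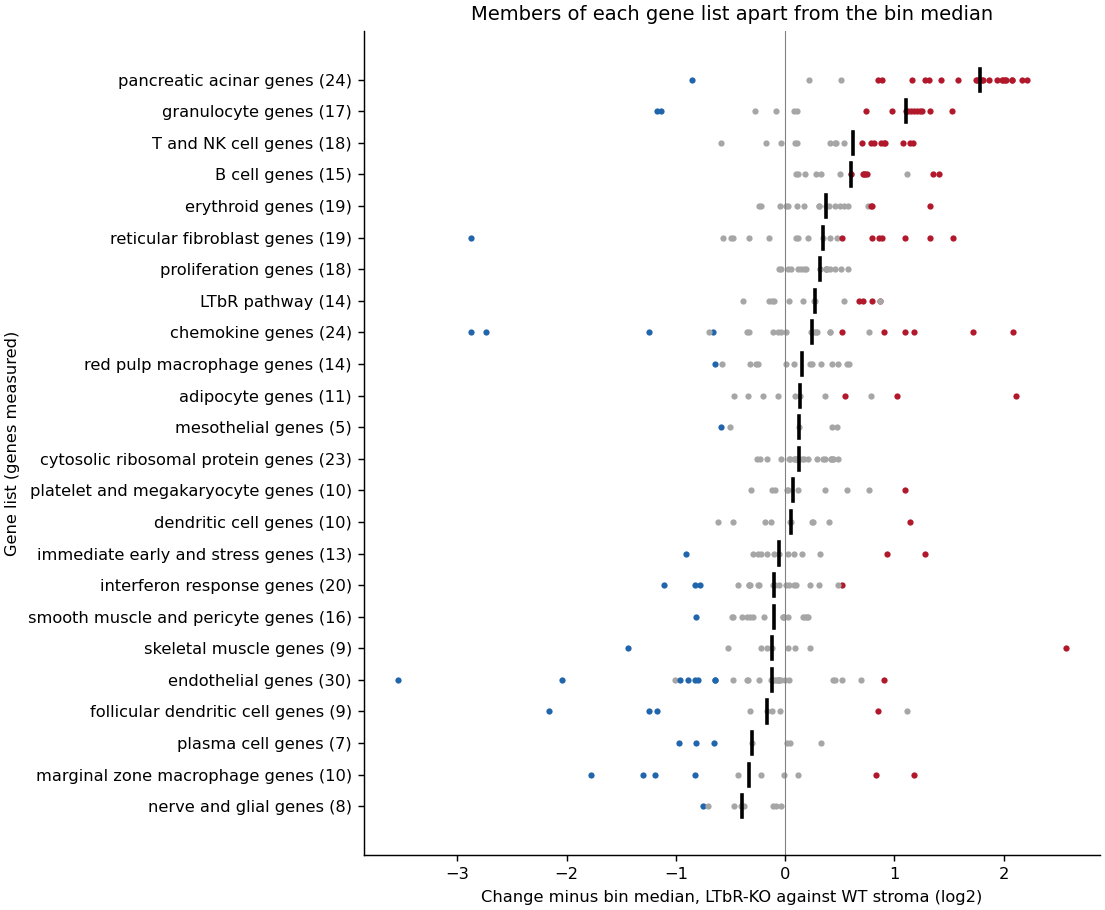
Each point is 1 measured gene of a list (by its brightest probe), placed by its change minus bin median (log2); blue and red points were called lower or higher than the bin, grey points were not, and black bars are list medians. Medians run from -0.39 for nerve and glial genes to 1.78 for acinar genes, and single members such as *Madcam1* (endothelial) and *Ccl21a* (reticular fibroblast) lie far from their lists.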

How the data were processed

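RNA of fresh WT and LTbR-KO splenic stroma, WT splenocytes and cultured WT stroma was hybridised to MouseRef-8 beadchips, 2 arrays per group, 8 in all. The authors deposited a bead signal intensity per probe without background correction and, from GenomeStudio (per the submitters' processing notes), a detection p-value against the negative controls of the array. The authors also deposited normalized intensities, made by cubic spline with background subtraction, which served as an alternative. No read depth applies to arrays, and the number of arrays limits the precision.

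Groups were taken from the sample labels. Background was corrected by normexp from the detection p-values with an offset of 16, and log2 values were quantile-normalized in limma (version 3.58.1, R 4.3.3). Probes detected (p under 0.05) on both arrays of any group (12389) were fitted on 4 group means over all 8 arrays, with empirical Bayes moderation and Benjamini-Hochberg adjustment over all of them. Residual degrees of freedom were 4. Apart from those for the distance from the bin median, every adjusted p in the text is limma's. That distance was tested by a t statistic with the same moderated error and adjusted over the 10998 members. It took the bin median as fixed, without an error of its own. Genes were named by a rule: the 10 largest falls below both fractions and rises above both, the 10 farthest below and above their bins, the 10 largest stroma-rich rises and splenocyte-rich falls, the LTbR pathway, *Clu*, and called members of each gene list. Other genes named, among them those of chromosomes 6 and 13, were picked once values had been seen. List members were counted by their brightest probe. Members and lists were chosen with earlier results of these data known. The fit was tested on simulated data with known changes. Alternatives covered background correction, normalization, detection filter, samples in the fit, fold thresholds and arrays left out. Gene order and promoter windows came from RefSeq (GRCm38.p6).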

Additional observations from a re-analysis of the deposited data

How the results depend on the processing

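No direction reversed among the 284 gene probes followed, and 149 of the 267 called ones kept their call in all alternatives run. Counts of probes moved more. With no background correction 36 probes were below both WT fractions and 13 splenocyte-rich probes fell, and with an offset of 50 there were 32 below both. Cyclic loess gave 416 higher probes, 9 stroma-rich rises and 11 splenocyte-rich falls. Scaling to the 75th percentile gave 416 higher probes, 130 and 195 probes lower and higher than their bins, and 8 stroma-rich rises. The authors' normalized values gave 9 stroma-rich rises. A fit of the 4 fresh stroma arrays alone gave 455 lower and 305 higher probes, with fewer degrees of freedom. A 2-fold threshold left 25 probes below and 39 above both. Taking the enrichment from WT stroma replicate 1 and the change from replicate 2, gave 122 and 174 probes apart from their bins, 6 stroma-rich rises and 10 splenocyte-rich falls, and the opposite split gave 211, 292, 21 and 18. In a 4-fold enrichment class 7 stroma-rich probes rose and 13 splenocyte-rich probes fell. Leaving out 1 array at a time gave 423 to 835 lower and 287 to 621 higher probes, 38 to 111 below and 67 to 147 above both, 95 to 308 lower and 149 to 369 higher than their bins, 7 to 18 stroma-rich rises and 9 to 24 splenocyte-rich falls. The lone array left in a group was then assumed to vary like the others. The cause of these shifts was not tested beyond the array or setting named. With the replicate number as a block there were 882 lower and 627 higher probes, 59 below and 101 above both, 222 and 336 apart from their bins, 16 stroma-rich rises and 18 splenocyte-rich falls. The numbers name samples only: deviations of same-numbered WT and LTbR-KO arrays correlated at 0.297 over the 10998 members, from 2 pairs. Signals near background limit the size of falls, which for undetected probes are lower bounds.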
